A study of Mus musculus with 12 samples.

Results

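The genes described here are the 10 mouse genes Srsf1, Srsf2, Srsf3, Srsf4, Srsf5, Srsf6, Srsf7, Srsf9, Srsf10 and Srsf11, which encode the SR splicing factors, and each was taken by its symbol from a table of 34513 genes counted in 12 RNA-seq libraries. RNA came from cultures of 3 mouse lines, the non-tumorigenic melanocyte line Melan-A, written MelanA in the labels, and the melanoma lines B16F0 and B16F10, of which the study treats B16F10 as metastatic. Cells of each line were left untreated or given SX-682, an antagonist of the chemokine receptors CXCR1 and CXCR2, which makes 6 groups of 2 libraries. The labels name no genetic change, dose or duration of treatment, call the controls untreated, and do not say whether replicates were separate cultures. The p-values therefore measure the spread between these libraries, which may be technical.

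SR proteins carry 1 or more RNA recognition motifs that contact the pre-mRNA and a tail rich in arginine and serine, the RS domain, that contacts other splicing proteins. They bind enhancer sequences in exons, help the U1 and U2 particles to find the splice sites, and are phosphorylated by the CLK and SRPK kinases, which sets where in the nucleus they sit and whether they are active. SR genes also regulate their own mRNA: each can be spliced to include a poison exon or keep an intron that brings a premature stop codon, and that transcript is then removed by nonsense-mediated decay. In melanoma and many other tumors SR proteins are studied because a change in their dose shifts the splicing of many other genes.

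Because most of the family moved together after SX-682, the promoters of the 3 members with the largest mean fall, Srsf1, Srsf2 and Srsf6, are shown beside that of Srsf4, which fell in no line. Each run is read 5′ to 3′ on the strand of the gene, from 250 bases before to 50 bases after a start annotated by RefSeq on GRCm38.p6. Capitals mark matches, on either strand, to the CCAAT box, to CCGGAA (the core bound by ETS factors), and to TGACGT (the core of a cAMP response element), the TATAAA box or the E-box CACGTG.
Srsf1, chr11:88047123-88047422, + strand: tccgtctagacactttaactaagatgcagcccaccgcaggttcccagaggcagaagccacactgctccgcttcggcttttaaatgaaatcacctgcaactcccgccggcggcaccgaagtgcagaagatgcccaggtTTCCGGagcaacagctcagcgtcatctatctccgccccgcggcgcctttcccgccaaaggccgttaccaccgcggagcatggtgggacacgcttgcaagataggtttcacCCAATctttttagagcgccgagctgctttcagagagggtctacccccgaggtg
Srsf2, chr11:116853045-116853344, - strand: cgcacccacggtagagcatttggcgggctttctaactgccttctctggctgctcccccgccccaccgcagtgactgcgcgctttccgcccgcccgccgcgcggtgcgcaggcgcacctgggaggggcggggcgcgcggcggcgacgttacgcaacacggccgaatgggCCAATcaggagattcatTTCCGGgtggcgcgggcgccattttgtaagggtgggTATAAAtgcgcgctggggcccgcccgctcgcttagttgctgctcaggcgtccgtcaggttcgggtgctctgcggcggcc
Srsf6, chr2:162931258-162931557, + strand: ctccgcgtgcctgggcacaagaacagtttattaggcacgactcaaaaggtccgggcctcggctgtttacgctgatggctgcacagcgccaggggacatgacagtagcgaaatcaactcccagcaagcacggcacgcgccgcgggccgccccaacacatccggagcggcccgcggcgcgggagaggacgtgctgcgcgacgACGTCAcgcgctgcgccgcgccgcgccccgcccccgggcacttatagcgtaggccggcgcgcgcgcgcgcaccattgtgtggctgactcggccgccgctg
Srsf4, chr4:131873387-131873686, + strand: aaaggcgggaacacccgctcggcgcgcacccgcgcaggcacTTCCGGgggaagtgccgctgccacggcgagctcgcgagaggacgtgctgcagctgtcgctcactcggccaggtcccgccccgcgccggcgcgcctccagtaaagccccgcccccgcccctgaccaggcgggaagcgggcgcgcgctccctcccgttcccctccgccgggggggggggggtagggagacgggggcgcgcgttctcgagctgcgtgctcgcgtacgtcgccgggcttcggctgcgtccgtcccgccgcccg
The capitals show no element shared by all 4. Positions are given for the first base of a match, with the start site as 0. Srsf1 held TTCCGG, the reverse complement of CCGGAA, at -113 and CCAAT at -3. Srsf2 held CCAAT at -82, TTCCGG at -65 and TATAAA at -29. Srsf6 held only ACGTCA, the reverse complement of TGACGT, at -50, and Srsf4 only TTCCGG at -209. All 10 genes were found in the RefSeq table, with 13 windows among them. In these 13 windows genes with several starts count more than once, and the windows of Srsf4 from 131873387 and from 131873389 overlap. Both of these hold CCGGAA, while a further window of Srsf4, from 131873810, held none of the motifs. Of the 13 windows, 8 held CCGGAA, against 14.9% of the 32851 windows of the whole table, and 4 held CCAAT, against 37.4%. TGACGT was held by 3, against 7.51%, TATAAA by 2, against 13.6%, and CACGTG by 0, against 7.15%. The 8 windows with CCGGAA belong to 6 genes. These are counts of letters in a window, and no binding was measured. The printed windows of Srsf1, Srsf2, Srsf6 and Srsf4 hold 22, 39, 45 and 49 CG dinucleotides, against a median of 7 over the whole table.

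The libraries held 48876982 to 85322092 counts in total, and the 10 members took between 1028 and 27922 counts each in every library. The lowest counts were those of Srsf4, whose standard errors of 0.060 to 0.065 in the SX-682 comparisons were the largest of the 10. Levels are given in CPM, the count divided by the TMM-scaled library size in units of 1e6 counts, and a called change is an adjusted p under 0.05 in edgeR's quasi-likelihood test over the 18338 genes that passed its filter on low counts. All 10 members passed that filter. An exact 2-sided permutation test of 2 libraries against 2 has 0.333 as its smallest p, and the calls rest on the spread shared across genes. The melanocyte genes Tyr, Tyrp1, Dct, Pmel, Mlana, Mitf, Sox10 and Slc45a2 were over 3 counts in all 12 libraries, but their summed level was 1350 to 1380 CPM in untreated Melan-A and 19300 to 25200 CPM in the untreated B16 lines, and Tyr, the gene for tyrosinase, was at 0.826 CPM in untreated Melan-A against 515 CPM in B16F0. The fibroblast list summed to 52.9 to 60.9 CPM in Melan-A and to 8.42 to 16.7 CPM in the B16 lines. The keratinocyte list summed to 3.3 to 6.02 CPM in Melan-A and to at most 0.759 CPM in the B16 lines. The leukocyte list summed to 10.3 to 49.8 CPM, of which most was Cd68. Ptprc, the gene for the pan-leukocyte marker CD45, held at most 22 counts and Cd3e at most 1 in any library.

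SX-682 lowered 8 of the 10 SR genes in every line, all but Srsf4 and Srsf11. The members that fell and rose were 9 and 0 for Melan-A, 8 and 1 for B16F0, and 9 and 1 for B16F10. Over all genes tested, 24.7%, 25% and 25.3% were called lower and 23.4%, 25.1% and 25.5% higher in Melan-A, B16F0 and B16F10 (48.2%, 50.1% and 50.8% in either direction), and 11.7% were lower and 11.3% higher in all 3. The members had a median log2 fold change of -0.45, -0.45 and -0.80 in Melan-A, B16F0 and B16F10, where the median over all genes tested was 0.00 in each line. The 10 members are not independent samples, and these medians are a description. Beside the SR genes, all 8 melanocyte genes fell in each B16 line, while 5 fell and 2 rose in Melan-A. The part of a change in cell state in the fall of the SR genes was not tested, and in bulk RNA fewer expressing cells and less RNA per cell cannot be told apart.

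**Figure D1:**
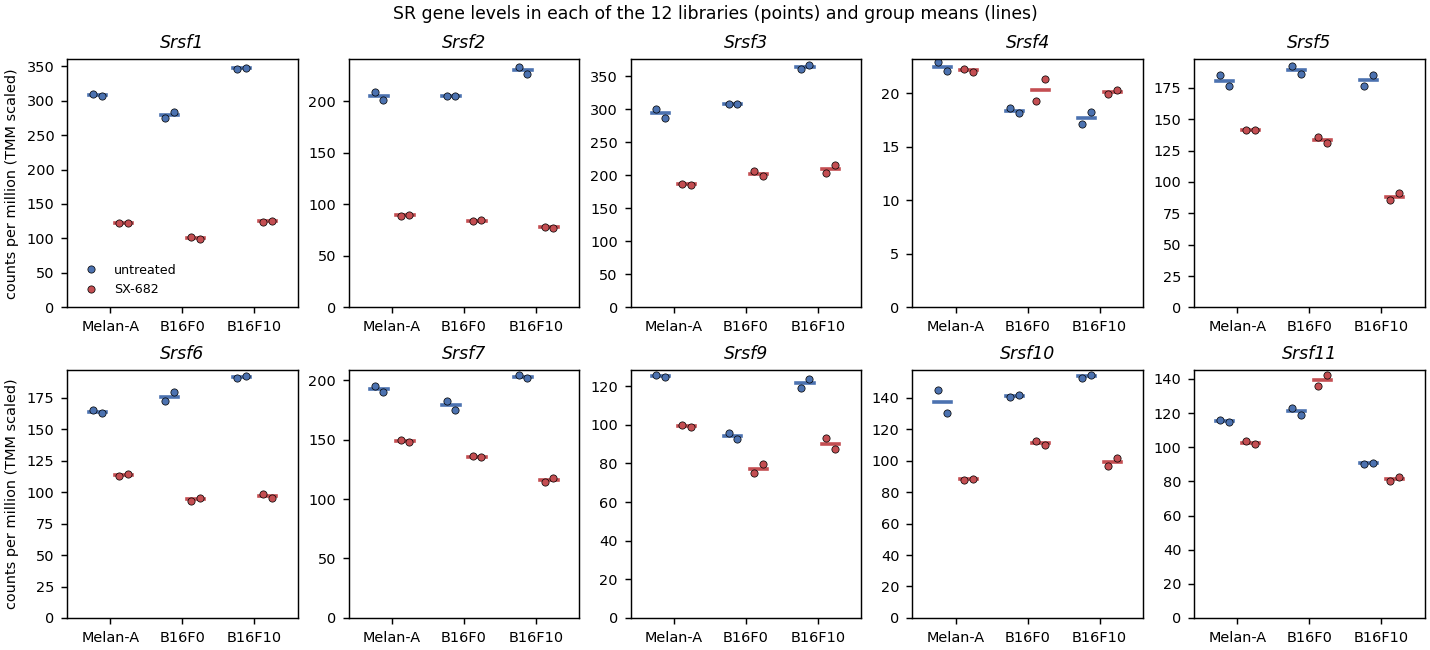
Level of each SR gene in CPM (vertical axis, from 0) in the 3 lines, with 1 point per library, blue for untreated and red for SX-682, and a line at each group mean of 2. The red points of Srsf1 lie between 98.5 and 125 and the blue between 275 and 348, while the red and blue points of Srsf4 lie close together in Melan-A.

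Srsf1 and Srsf2 fell most. SRSF1 is the founding member of the family, binds purine-rich exonic enhancers and acts as an oncoprotein when raised, and SRSF2 marks the nuclear speckles in which splicing factors are stored. Srsf1, on chromosome 11 of GRCm38 from 88047373 to 88053755, was at 309 and 307 CPM in untreated Melan-A and at 123 and 122 CPM with SX-682, at 275 and 283 CPM in untreated B16F0 and at 103 and 98.5 CPM with SX-682, and at 345 and 348 CPM in untreated B16F10 and at 124 and 125 CPM with SX-682. The 6 treated libraries all lay under the 6 untreated ones. On this TMM scale the treated levels of Melan-A and B16F10 were alike although B16F10 had started higher. Library totals did not keep that untreated order (log2 ratio of B16F10 to Melan-A -0.0164, adjusted p = 0.57). SX-682 thus changed Srsf1 by -1.33, -1.47 and -1.47 on the log2 scale in Melan-A, B16F0 and B16F10 (standard errors 0.026 to 0.027, highest adjusted p = 1e-25), which left 0.398, 0.361 and 0.360 of the untreated level.

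Srsf2, on chromosome 11 from 116849901 to 116853094, was at 209 and 201 CPM in untreated Melan-A and at 89.0 and 89.4 CPM with SX-682, at 205 and 206 CPM in untreated B16F0 and at 84.0 and 84.5 CPM with SX-682, and at 233 and 227 CPM in untreated B16F10 and at 78.1 and 77.6 CPM with SX-682. On this TMM scale B16F10 was thus the highest line untreated and the lowest treated. With library totals the untreated log2 ratio of B16F10 to Melan-A was -0.0209 (adjusted p = 0.5). The log2 fold changes of Srsf2 were -1.20, -1.29 and -1.56 in the lines in that order (standard errors 0.029 to 0.030, highest adjusted p = 6.6e-24). Of all genes tested, 52 (0.284%) were called lower with a log2 fold change of -1 or beyond in all 3 lines, and Srsf1 and Srsf2 were 2 of them. The annotation places 25.3% of the exonic bases of Srsf2 under exons of Mettl23 and Mfsd11 on the opposite strand, and whether the counting used strand is not given in the sources used here. Those neighbours held at most 1063 and 4222 counts, and their log2 fold changes were 0.45, 0.12 and 0.25 for Mettl23 and 0.28, -0.23 and -0.55 for Mfsd11 in Melan-A, B16F0 and B16F10.

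Srsf3 and Srsf7 encode closely related proteins that, beside their part in splicing, serve as adaptors for the mRNA export receptor NXF1, and SRSF7 has a zinc knuckle next to its RNA recognition motif. Srsf3, on chromosome 17 from 29032628 to 29043373, was at 301 and 287 CPM in untreated Melan-A and 187 and 186 CPM with SX-682, at 309 and 309 CPM in untreated B16F0 and 206 and 198 CPM with SX-682, and at 360 and 367 CPM in untreated B16F10 and 203 and 215 CPM with SX-682. The log2 fold changes were -0.66, -0.61 and -0.80 in Melan-A, B16F0 and B16F10 (standard errors 0.028 to 0.029, highest adjusted p = 4.5e-17). The treated libraries lay under the untreated ones of every line, and the lines drew closer together with treatment. Srsf7, also on chromosome 17, from 80200080 to 80207307, was at 195 and 190 CPM in untreated Melan-A and 150 and 148 CPM with SX-682, at 182 and 175 CPM in untreated B16F0 and 136 and 135 CPM with SX-682, and at 204 and 202 CPM in untreated B16F10 and 114 and 118 CPM with SX-682. Its log2 fold changes were -0.37, -0.40 and -0.80 (standard errors 0.028 to 0.029, highest adjusted p = 2.2e-12). The log2 fold changes of the pair were alike in B16F10, and that of Srsf3 was the lower in Melan-A and B16F0, a difference between genes that was not tested.

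Srsf4, Srsf5 and Srsf6 encode SR proteins with 2 RNA recognition motifs, of which SRSF4 has the longest RS domain. Srsf6, on chromosome 2 from 162931528 to 162937121, was at 165 and 163 CPM in untreated Melan-A and 113 and 115 CPM with SX-682, at 172 and 180 CPM in untreated B16F0 and 93.4 and 95.5 CPM with SX-682, and at 191 and 192 CPM in untreated B16F10 and 98.4 and 95.7 CPM with SX-682. For Srsf6 the log2 fold changes were -0.53, -0.90 and -0.98 (standard errors 0.029 to 0.030, highest adjusted p = 1.9e-15). On the TMM scale the treated B16 libraries lay under the treated Melan-A libraries, whereas the untreated ones lay above those of Melan-A. With library totals the untreated log2 ratios to Melan-A were 0.0095 for B16F0 and 0.039 for B16F10, and neither was called. Srsf5, on chromosome 12 from 80945504 to 80950507, was at 185 and 176 CPM in untreated Melan-A and 141 and 141 CPM with SX-682, at 193 and 186 CPM in untreated B16F0 and 136 and 131 CPM with SX-682, and at 177 and 185 CPM in untreated B16F10 and 85.7 and 91.0 CPM with SX-682. For Srsf5 they were -0.36, -0.50 and -1.03 (standard errors 0.0326 to 0.0345, highest adjusted p = 1.4e-10). On the TMM scale the untreated levels of Srsf5 overlapped between Melan-A and B16F10 and lay just above both in B16F0. With library totals untreated B16F10 lay below untreated Melan-A (log2 ratio -0.18, adjusted p = 5.9e-06). The treated B16F10 libraries stood well under all the others.

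Srsf4, on chromosome 4 from 131873617 to 131901706, was the lowest of the 10 by level and did not fall. It was at 22.9 and 22.1 CPM in untreated Melan-A and 22.3 and 22.006 CPM with SX-682, at 18.7 and 18.1 CPM in untreated B16F0 and 19.2 and 21.4 CPM with SX-682, and at 17.1 and 18.3 CPM in untreated B16F10 and 19.9 and 20.4 CPM with SX-682. The groups overlapped in Melan-A, where the log2 fold change was -0.02 (95% interval -0.14 to 0.10, adjusted p = 0.81), and it was 0.14 in B16F0 (95% interval 0.01 to 0.26, adjusted p = 0.083). In B16F10 it rose by 0.19 (95% interval 0.06 to 0.31, adjusted p = 0.018), a call that was lost without B16F10 control replicate 1 (0.14, adjusted p = 0.17), without SX-682 replicate 1 (0.19, adjusted p = 0.053) and without SX-682 replicate 2 (0.17, adjusted p = 0.088), while in B16F0 the gene was called without SX-682 replicate 1 (0.21, adjusted p = 0.027). Of the exonic bases of Srsf4, 43.0% lie under the noncoding gene Gm12992 on the opposite strand, which held at most 47 counts.

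Srsf9, Srsf10 and Srsf11 are the remaining members. SRSF9 has a short RS domain, SRSF10 acts as a splicing repressor when it loses its phosphates in mitosis or after heat shock, and SRSF11 is among the less typical members. Srsf9, on chromosome 5 from 115327177 to 115333080, was at 126 and 125 CPM in untreated Melan-A and 99.8 and 99.1 CPM with SX-682, at 95.6 and 92.8 CPM in untreated B16F0 and 75.1 and 79.7 CPM with SX-682, and at 119 and 124 CPM in untreated B16F10 and 93.1 and 87.5 CPM with SX-682. It fell by 0.33, 0.29 and 0.43 on the log2 scale in Melan-A, B16F0 and B16F10 (standard errors 0.034 to 0.036, highest adjusted p = 8.1e-08), in each line the smallest fall of the 8 genes lowered everywhere. Srsf10, on chromosome 4 from 135855747 to 135869908, was at 145 and 130 CPM in untreated Melan-A and 88.0 and 88.0 CPM with SX-682, at 140 and 142 CPM in untreated B16F0 and 113 and 110 CPM with SX-682, and at 153 and 154 CPM in untreated B16F10 and 96.6 and 102 CPM with SX-682. Its log2 fold changes were -0.64, -0.34 and -0.63 (standard errors 0.037, highest adjusted p = 4.7e-09). Srsf10 fell least in B16F0, and its 2 untreated Melan-A libraries stood further apart than in the other lines.

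Srsf11, on chromosome 3 from 158010473 to 158036639, moved in opposite directions. It was at 116 and 115 CPM in untreated Melan-A and 103 and 102 CPM with SX-682, at 123 and 119 CPM in untreated B16F0 and 136 and 142 CPM with SX-682, and at 90.1 and 91.0 CPM in untreated B16F10 and 80.1 and 82.8 CPM with SX-682. The treated libraries lay above the untreated ones in B16F0 and under them in the other lines. Its log2 fold change was 0.20 in B16F0 (adjusted p = 2.9e-06), against -0.17 for Melan-A (adjusted p = 3.9e-05) and -0.15 for B16F10 (adjusted p = 0.00025), with standard errors of 0.031 to 0.033. In all, both treated libraries lay below both controls for 9, 8 and 9 members of Melan-A, B16F0 and B16F10, where 36.7%, 35% and 34.2% of all genes tested did so. They lay above for 0, 2 and 1 members, where 36%, 35.4% and 35.2% of all genes tested did so.

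**Figure D2:**
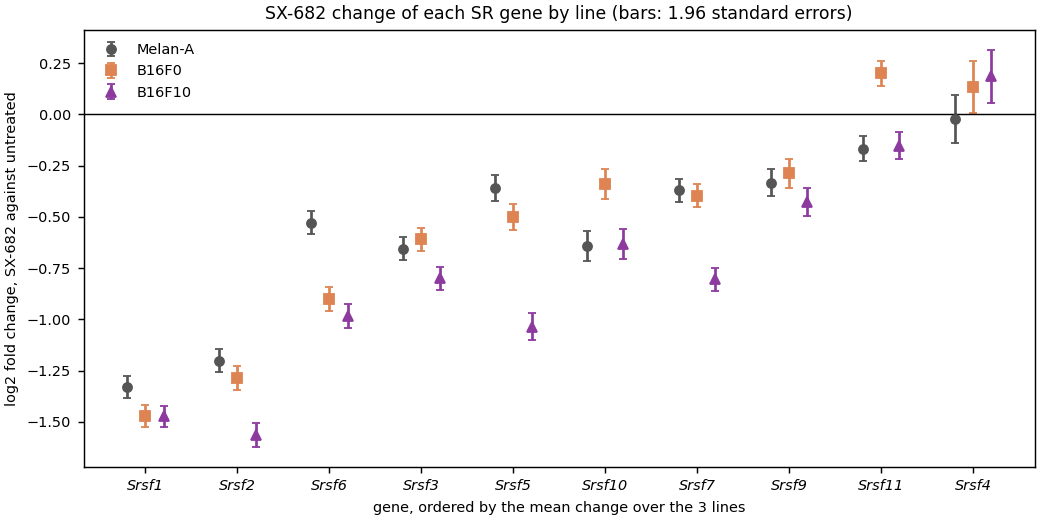
Log2 fold change of each SR gene after SX-682 (vertical axis) for Melan-A (circles), B16F0 (squares) and B16F10 (triangles), ordered by the mean over the lines, with bars for the 95% interval. Srsf1 and Srsf2 lie between -1.20 and -1.56, Srsf5 reaches -1.03 in B16F10 alone, and Srsf11 in B16F0 is at 0.20.

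The size of the response differed among the lines for 8 of the 10 members in an F-test of the line by treatment term, where 47.4% of all genes tested passed. Srsf5 had the widest range of log2 fold changes over the lines, 0.68 (adjusted p = 1.7e-12), and Srsf4 (range 0.21, adjusted p = 0.12) and Srsf9 (range 0.14, adjusted p = 0.058) did not pass. The change was more negative in B16F10 than in B16F0 for 7 members and less negative for 0, where 14.9% of all genes tested were called in the first direction and 30.3% in either. The 7 were Srsf2, Srsf3, Srsf5, Srsf7, Srsf9 and Srsf10, which fell in both lines, and Srsf11, which rose in B16F0 and fell in B16F10, and the largest difference, B16F10 minus B16F0, was -0.53 for Srsf5 (standard error 0.048, adjusted p = 5.3e-10), followed by -0.41 for Srsf7 (standard error 0.041, adjusted p = 4.5e-09). The difference of -0.14 for Srsf9 (adjusted p = 0.034) was lost with upper quartile scaling (-0.13, adjusted p = 0.064) and with library totals (-0.11, adjusted p = 0.1), and also without B16F0 control replicate 2 (-0.12), B16F0 SX-682 replicate 2 (-0.10), B16F10 control replicate 2 (-0.12) or B16F10 SX-682 replicate 2 (-0.10), with adjusted p from 0.13 to 0.23. For Srsf1 the B16 lines gave the same change within a narrow interval (difference -0.00, 95% interval -0.08 to 0.07, adjusted p = 1).

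Against Melan-A, the mean change of the B16 lines was lower for Srsf1, Srsf2, Srsf5, Srsf6 and Srsf7, which makes 5 members where 17.1% of all genes tested were called, and higher for Srsf10 and Srsf11, where 18.7% were called (35.8% in either direction). The differences, B16 mean minus Melan-A, were -0.41 for Srsf6 (standard error 0.036, adjusted p = 1.2e-10), -0.41 for Srsf5 (standard error 0.040, adjusted p = 1.5e-09), -0.23 for Srsf7, -0.22 for Srsf2 and -0.14 for Srsf1. Srsf6 therefore separated Melan-A from the B16 lines, which did not differ beyond the test for it (-0.08, 95% interval -0.17 to 0.00, adjusted p = 0.15), while Srsf5 set B16F10 apart. The difference for Srsf10 was 0.16 (adjusted p = 0.0067) and 0.07 without Melan-A control replicate 1 (adjusted p = 0.23), and that for Srsf11 was 0.19 (adjusted p = 0.00018). For Srsf3, Srsf4 and Srsf9 the differences were -0.05, 0.18 and -0.02, and did not pass; without Melan-A control replicate 1 Srsf3 did (-0.09, adjusted p = 0.044), and Srsf4 did without B16F0 SX-682 replicate 1 (0.21, adjusted p = 0.034) or with at least 10 counts required in every library (0.18, adjusted p = 0.047).

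To compare members with each other, CPM was divided by the length of the gene model in kb, 1653 bases for Srsf9 up to 8446 bases for Srsf11. In untreated Melan-A the order of these levels was Srsf9 at 75.8 ± 0.62, Srsf2 at 69.4 ± 2.0, Srsf7 at 54.3 ± 0.88, Srsf1 at 54.0 ± 0.19, Srsf5 at 45.3 ± 1.6, Srsf3 at 37.2 ± 1.3, Srsf6 at 34.1 ± 0.29, Srsf10 at 19.6 ± 1.5, Srsf11 at 13.6 ± 0.086 and Srsf4 at 6.32 ± 0.16 CPM per kb (SD, n = 2). Srsf7 and Srsf1 did not differ beyond their spread there. In untreated B16F0 and B16F10 Srsf2 came first, at 69.4 ± 0.19 and 77.8 ± 1.5 CPM per kb, and Srsf9 next, at 57.0 ± 1.2 and 73.5 ± 2.1 CPM per kb (SD, n = 2). With SX-682 Srsf9 was first in every line and Srsf1 went from rank 4, 4 and 3 of the 10 to rank 7, 7 and 6 in Melan-A, B16F0 and B16F10. A length summed over all annotated exons understates the level of genes whose main transcript is short.

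The summed level of the 10 genes was 416 and 404 CPM per kb in the untreated Melan-A libraries and 268 and 267 with SX-682. It was 390 and 387 CPM per kb in untreated B16F0 and 247 and 248 with SX-682, and 436 and 440 in untreated B16F10 and 233 and 234 with SX-682. The treated sum was thus 0.653, 0.638 and 0.534 times the untreated one in Melan-A, B16F0 and B16F10. On this TMM scale B16F10 had the highest sum untreated and the lowest treated. The untreated order depends on that scaling, whose factors were 1.064 and 1.065 for untreated Melan-A and 0.937 and 0.9344 for untreated B16F10.

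The makeup of that sum shifted away from Srsf1 and Srsf2. Srsf1 made up 13.2% ± 0.23, 12.6% ± 0.33 and 13.9% ± 0.035 of the untreated sums of Melan-A, B16F0 and B16F10, and 8.03% ± 0.027, 7.10% ± 0.22 and 9.35% ± 0.032 of the treated ones (SD, n = 2). Srsf2 made up 16.9%, 17.9% and 17.8% untreated and 11.3%, 11.5% and 11.3% treated. Srsf9, which fell less, took 18.5%, 14.7% and 16.8% of the untreated sums and 22.5%, 18.9% and 23.4% of the treated ones. Srsf4 grew from 1.54%, 1.33% and 1.13% to 2.33%, 2.30% and 2.42% with little change in its own level. Shares sum to a fixed total, so a smaller share of one gene raises the others.

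**Figure D3:**
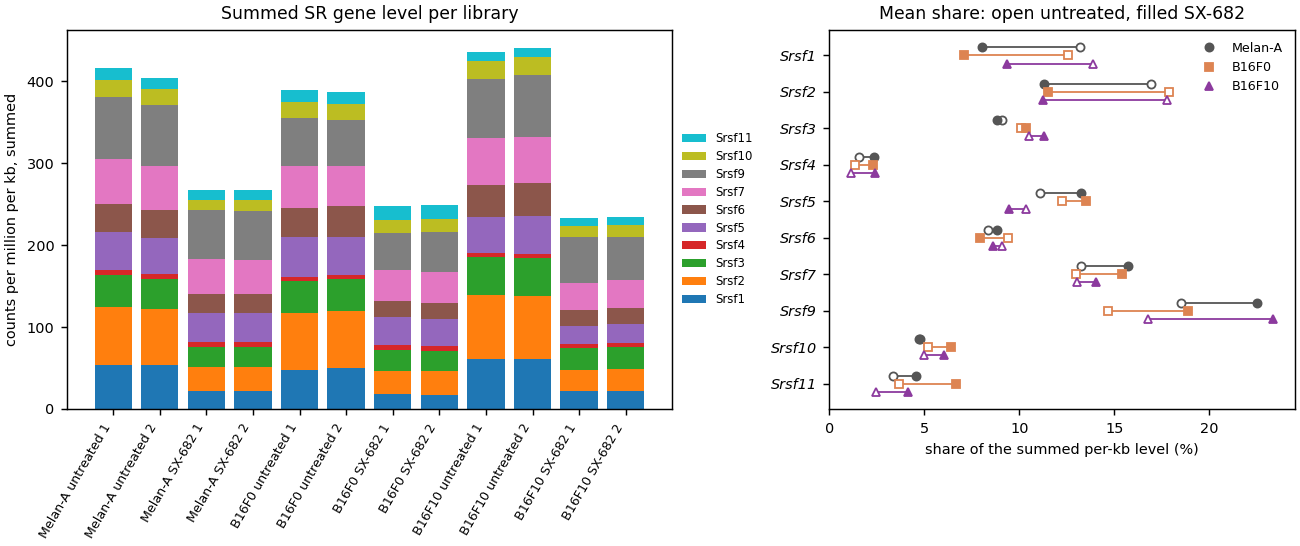
Left, summed level of the 10 SR genes in CPM per kb (vertical axis, from 0) in each of the 12 libraries, stacked by gene; right, mean share of each gene in that sum in percent, open untreated and filled SX-682, for Melan-A (circles), B16F0 (squares) and B16F10 (triangles). The sums fall from between 387 and 440 to between 233 and 268, and the filled points of Srsf1 and Srsf2 lie left of the open ones while those of Srsf9 lie right.

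Without treatment the lines differed by small amounts. These comparisons share their control libraries with the SX-682 comparisons above, and the treated libraries enter the same fit. Between B16F10 and B16F0, 7 members were higher in B16F10 (Srsf1, Srsf2, Srsf3, Srsf6, Srsf7, Srsf9 and Srsf10) and 1, Srsf11, was lower, where 30.8% and 31.2% of all genes tested were called in these directions (62% in either). The log2 ratios, B16F10 against B16F0, were 0.37 for Srsf9 (standard error 0.035, adjusted p = 1.6e-10), 0.31 for Srsf1 (standard error 0.025, adjusted p = 4.9e-12) and -0.42 for Srsf11 (standard error 0.032, adjusted p = 1.3e-12). Those of Srsf4 (-0.06, 95% interval -0.18 to 0.07) and Srsf5 (-0.06, 95% interval -0.13 to 0.00) did not pass. That of Srsf5 did with the replicate block (adjusted p = 0.048), at least 10 counts in every library (-0.09, adjusted p = 0.014), upper quartile scaling (-0.12, adjusted p = 0.0016) or library totals (-0.16, adjusted p = 7.4e-05). Srsf4 passed with library totals (-0.15, adjusted p = 0.044). The higher Srsf10 lost its call with upper quartile scaling (0.07, adjusted p = 0.087) or library totals (0.03, adjusted p = 0.47), and Srsf6 with library totals (0.03, adjusted p = 0.4).

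Against Melan-A, B16F0 had 4 members lower (Srsf1, Srsf4, Srsf7 and Srsf9) and 3 higher (Srsf3, Srsf6 and Srsf11), where 40.6% and 35.3% of all genes tested were called (75.9% in either direction). The lower level of Srsf9 was the largest of these differences, at -0.41 on the log2 scale (standard error 0.034, adjusted p = 5.3e-12), and Srsf4 followed at -0.29 (standard error 0.062, adjusted p = 0.00011). The higher ones were 0.10 or less on the log2 scale, and those of Srsf3 and Srsf11 lost the call without Melan-A control replicate 2 (0.04 and 0.07) or B16F0 control replicate 1 (0.07 and 0.05), Srsf3 also without B16F0 control replicate 2 (0.08), and Srsf11 also without Melan-A control replicate 1 (0.07) or either Melan-A SX-682 library (0.07 in each). DESeq2 and RLE scaling (0.04 for both genes) and at least 10 counts in every library (0.03 for both) ended these calls too. Without B16F0 control replicate 2 the lower Srsf7 lost it too (-0.07). Srsf5 (0.07, adjusted p = 0.065) passed without Melan-A control replicate 1 (0.10), B16F0 control replicate 2 (0.10) or either B16F0 SX-682 library (0.07 and 0.06), and with the replicate block (0.07, adjusted p = 0.034), no filter (0.08, adjusted p = 0.021) or upper quartile scaling (0.10, adjusted p = 0.0041), and Srsf10 without Melan-A control replicate 1 (0.11). B16F10 had 6 members higher than Melan-A (Srsf1, Srsf2, Srsf3, Srsf6, Srsf7 and Srsf10) and 2 lower (Srsf4 and Srsf11), where 33.4% and 40.8% of all genes tested were called (74.2% in either direction). Srsf3 was the highest of these, at 0.31 (standard error 0.028, adjusted p = 3.8e-11), and Srsf4 and Srsf11 were both at -0.35 (adjusted p = 1.4e-05 and 4.6e-11). Srsf9 (-0.04) was not called, but was called lower with at least 10 counts in every library (-0.11, adjusted p = 0.004) or library totals (-0.23, adjusted p = 6e-07). The higher Srsf7 (0.08) lost its call without Melan-A control replicate 2 (0.07) or B16F10 control replicate 1 (0.07), and also with DESeq2 (0.05, adjusted p = 0.16), RLE scaling (0.05, adjusted p = 0.14), upper quartile scaling (0.06, adjusted p = 0.056) or at least 10 counts in every library (0.01, adjusted p = 0.73).

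The direction of the smaller line differences depended on scaling. The median log2 ratio of untreated B16F10 to untreated Melan-A over the 9361 genes with a mean log2 CPM of at least 3 was 0.08 with TMM scaling and -0.11 with library totals alone, and the share of called genes that were higher was 45% and 34.3%. With library totals 1 member was higher in B16F10 than in Melan-A, Srsf3 at 0.12, and 5 were lower. Of the 18338 genes tested, 4694 were called higher and 8998 lower with that scaling. Called in the same direction by both scalings were the lower Srsf1, Srsf4, Srsf7 and Srsf9 of B16F0 against Melan-A, the lower Srsf4 and Srsf11 and the higher Srsf3 of B16F10 against Melan-A, and, for B16F10 against B16F0, the lower Srsf11 and the higher Srsf1, Srsf2, Srsf3, Srsf7 and Srsf9. The SX-682 changes within a line were little touched by scaling, with a median over the same genes between -0.03 and 0.02 in every line under TMM, RLE, upper quartile and library totals.

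**Figure D4:**
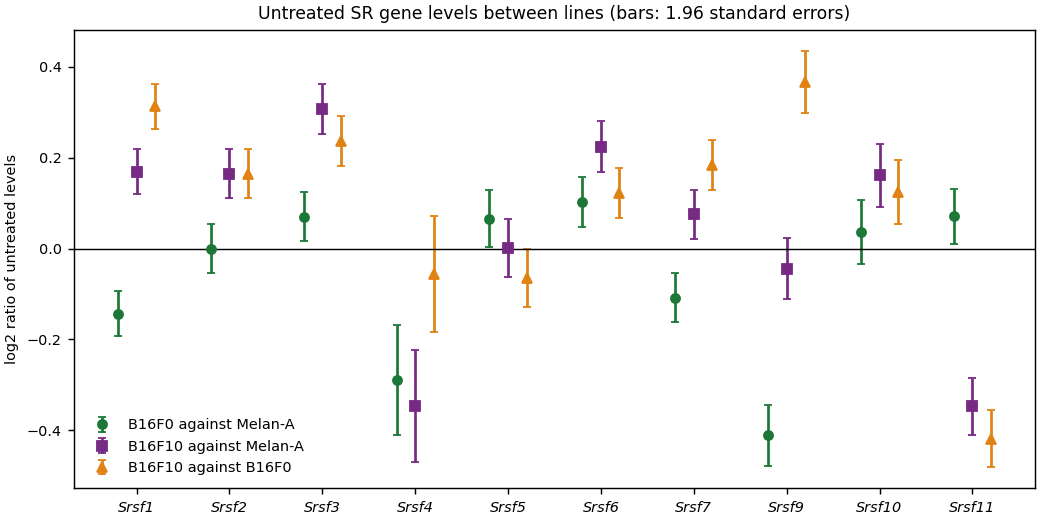
Log2 ratio of untreated levels between lines (vertical axis) for each SR gene, with circles for B16F0 against Melan-A, squares for B16F10 against Melan-A and triangles for B16F10 against B16F0, and bars for the 95% interval. Most points lie within 0.35 of 0 on this TMM scale, and Srsf9 in B16F0 (-0.41) and Srsf11 in B16F10 against B16F0 (-0.42) lie furthest below.

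The annotation bears on what these counts can show. In GENCODE M21, whose coordinates and exon lengths match those of the count table for all 10 genes, 9 members have between 1 and 3 transcripts marked as targets of nonsense-mediated decay, and Srsf10 has 0. Srsf11 also has 11 transcripts with a retained intron, Srsf3 4, Srsf5 and Srsf7 3 each, Srsf1 2, and Srsf2, Srsf4 and Srsf6 1 each. A count per gene adds productive and poison transcripts together, so the fall in counts does not say which of them fell. Near-identical genes elsewhere, most of them processed pseudogenes, aligned to Srsf3, Srsf5 or Srsf10 with 96.9% to 99.6% identity and held at most 189 counts in any library.

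The genes that act on SR proteins or beside them were taken as lists, and their counts stand beside the shares of all genes tested, 24.7%, 25% and 25.3% lower and 23.4%, 25.1% and 25.5% higher in Melan-A, B16F0 and B16F10, and 11.7% lower and 11.3% higher in all lines. Among 10 SR kinase and import genes, 4 fell and 4 rose in Melan-A, 3 fell and 6 rose in B16F0, and 3 fell and 6 rose in B16F10. Clk1 and Clk4, which encode nuclear kinases that phosphorylate RS domains, rose in every line while the SR genes fell: the log2 fold changes of Clk4 were 0.65, 1.15 and 0.79 and those of Clk1 0.57, 1.01 and 0.88 in Melan-A, B16F0 and B16F10 (adjusted p at most 7.4e-12). Srpk2, a kinase of the cytoplasm and nucleus, fell in Melan-A (-0.12, adjusted p = 0.0058) and rose in B16F0 (0.22) and B16F10 (0.24). The 3 genes of the list that fell in all lines, named after their values were seen, were Prpf4b, Srpk1 and Tnpo3, the gene for the importin of SR proteins.

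Of 25 genes for SR-related proteins and for U1 and U2AF partners, 18 fell and 3 rose in Melan-A, 12 fell and 9 rose in B16F0, and 14 fell and 4 rose in B16F10, with 11 lower and 3 higher in all lines. Luc7l3, a U1-associated protein with an RS domain, fell by 0.67, 1.05 and 1.25 on the log2 scale, and Arglu1 by 0.83, 1.08 and 0.96. Srrm2, which encodes a scaffold of nuclear speckles, and Luc7l2 fell in Melan-A (-0.28 and -0.34) and B16F10 (-0.31 and -0.30) and rose in B16F0 (0.21 and 0.14), as Srsf11 did. The list held 4 genes with called changes in opposite directions. The share of all genes tested with such changes is not given here, so this count is a description.

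Of 15 hnRNP genes, whose proteins often oppose SR proteins at exons, 14, 12 and 12 fell in Melan-A, B16F0 and B16F10, with 11 lower in all lines and 0 higher in all. Hnrnph1 had log2 fold changes of -0.90, -0.90 and -1.004 and Hnrnpm of -0.68, -1.03 and -0.997. Hnrnpl was lower in Melan-A and B16F0 (-0.11 and -0.15) and higher in B16F10 (0.21), and Hnrnpc was lower in Melan-A (-0.06) and higher in B16F0 (0.30). The hnRNP list thus fell with the SR genes, and its medians of -0.37, -0.32 and -0.42 were nearer to 0 than those of the SR genes.

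Among 14 genes of nonsense-mediated decay and the exon junction complex, 7 fell and 1 rose in Melan-A, 5 fell and 6 rose in B16F0, and 9 fell and 3 rose in B16F10, with 5 lower and 1 higher in all lines. Upf1, the helicase at the centre of that pathway, changed by -0.62, -0.08 and -0.80 and Upf3b by -0.69, -0.21 and -0.60, in both cases least in B16F0. Upf3a fell in Melan-A (-0.19) and rose in B16F0 (0.34) and B16F10 (0.52). Of 11 mRNA export genes found in the table out of 12, 7 fell and 2 rose in all lines, and the largest falls by the mean over the lines were those of Thoc2 (-0.53, -0.38 and -0.78) and Alyref (-0.53, -0.37 and -0.59).

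**Figure D5:**
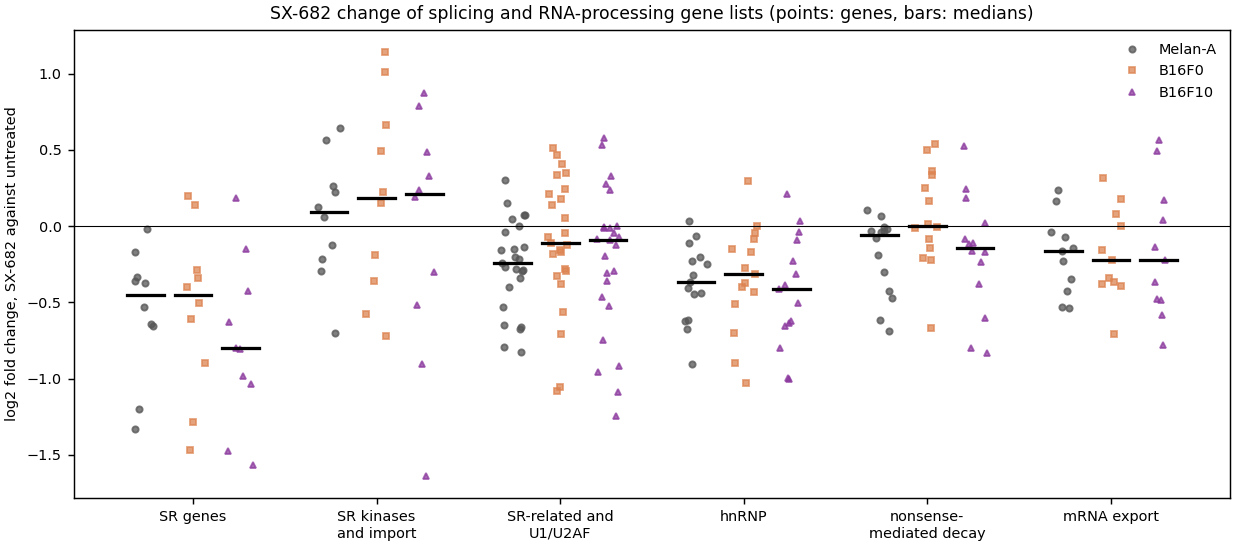
Log2 fold change after SX-682 (vertical axis) of the genes of 6 lists for Melan-A (circles), B16F0 (squares) and B16F10 (triangles), with 1 point per gene and a bar at the median. The SR genes have the lowest median in each line, from -0.45 to -0.80, and the SR kinase and import genes a median above 0 in each.

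Over the 12 libraries, the genes nearest to the mean profile of the 10 members were Rbmx, Rbbp6, Mcm4, Tmem167 and Zbtb8os, out of 9351 other genes. The root mean square difference of their centred log2 CPM from that mean centred profile was 0.039 for Rbmx and 0.053 for Rbbp6. It was 0.058 for Mcm4, a subunit of the replicative helicase, 0.068 for Tmem167 and 0.069 for Zbtb8os. By the same measure the members themselves lay at 0.079 (Srsf7) to 0.425 (Srsf1), further from their mean than each of these genes. Rbmx encodes the RNA-binding protein hnRNP G. The log2 fold changes of Rbmx were -0.58, -0.52 and -0.75 in Melan-A, B16F0 and B16F10. The libraries of a group share their treatment and line, and this likeness is a description over 6 groups.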

How the data were processed

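RNA from Melan-A, B16F0 and B16F10 cultures, untreated or given SX-682, was sequenced in 12 libraries, 2 for each of 6 groups taken from the sample titles. The authors deposited raw read counts per gene for 34513 genes, with no normalization; the submitters' notes name mm10, cutadapt, STAR and DESeq2, and how strand was handled is not given in the sources used here. The gene model length used per kb is the deposited one.

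Counts were analysed in R 4.3.3 with edgeR 4.0.16: TMM scaling, filterByExpr (18338 genes kept), 1 quasi-likelihood fit of all 12 libraries without a block, p adjusted by Benjamini-Hochberg (threshold 0.05), and a prior count of 0.125. Standard errors came from the F statistic, and 95% intervals are normal ones. The biological coefficient of variation was 2.78%, on 6 residual and 21.9 prior degrees of freedom. Library totals ran from 48876982 to 85322092 counts. Replicates differed by more than counting noise (chi-square per gene 2.87 to 5.25). The fits were tested on simulated data. The members and lists were chosen with earlier results of these data known. Genes named from a list are the 2 with the largest mean change in one direction in all lines and at most 2 with opposite called changes, of which 1 is not reported here. Alternatives were DESeq2 1.42.0, RLE, upper quartile and total scaling, other filters, a prior count of 2, a separate fit per line, a replicate block and each library left out. Protein sequences were not analysed here.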

Additional observations from a re-analysis of the deposited data

Results flagged for a closer look

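The SX-682 change of 8 SR genes differed among Melan-A, B16F0 and B16F10 in edgeR's F-test of the line by treatment term. The range of the 3 log2 fold changes was 0.68 for Srsf5, 0.45 for Srsf6, 0.43 for Srsf7, 0.37 for Srsf11, 0.36 for Srsf2, 0.30 for Srsf10, 0.19 for Srsf3 and 0.14 for Srsf1. Srsf11 was the member whose called changes had opposite signs in different lines. For Srsf1 the range was small beside its fall and rested on the smaller change in Melan-A. Since 47.4% of all genes tested differed among the lines by this test, a call of this kind is common in these data.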

How the results depend on the processing

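Of 630 re-computed SX-682 changes of members within a line, 624 kept their direction and their side of the threshold, 3 lost the call, 3 gained it and 0 reversed; the 6 were all changes of Srsf4 in a B16 line. The 8 members lowered in all lines were 8 under each alternative. With upper quartile scaling or at least 10 counts in every library, 2 members rose in B16F0, where 1 rose as reported. Over all genes tested, 4851 were called higher there with upper quartile scaling and 4594 as reported. Members higher in untreated B16F0 than in untreated Melan-A, 3 as reported, were 1 with DESeq2, RLE or at least 10 counts, and 0 with library totals. Of the 18338 genes tested, 6480 were called higher as reported, 5957 with DESeq2, 6215 with RLE and 5785 with library totals. In untreated B16F10 against Melan-A, library totals gave 5 lower and 1 higher, where 8998 and 4694 of the 18338 genes tested were called in these directions. Members lower in untreated B16F10 than in B16F0, 1 as reported, were 2 with upper quartile scaling, at least 10 counts or the replicate block, and 3 with library totals. Calls over all genes tested in that direction were 5729 as reported, 6250 with upper quartile scaling and 6682 with library totals. Such totals are not given here for the other filters or the replicate block. Library totals also turned the untreated ratios of Srsf3 and Srsf11 in B16F0 (-0.0224 and -0.0215) and of Srsf1 (-0.0164), Srsf2 (-0.0209), Srsf5 (-0.18), Srsf7 (-0.11) and Srsf10 (-0.0249) in B16F10 against Melan-A. Library totals shift all genes of a comparison together. With 1 library left out in turn, members that rose were 1 to 2 in B16F0 and 0 to 1 in B16F10, members with a higher change in the B16 lines than in Melan-A were 1 to 3 (5 to 6 with a lower one), members with a more negative change in B16F10 than in B16F0 were 6 to 7, and members higher in untreated B16F0 than in Melan-A were 1 to 4, the lowest without Melan-A control replicate 2 or B16F0 control replicate 1. A group left with 1 library is assumed to vary like the others. Replicate numbers did not pair the libraries: the correlation across 9515 genes of the difference between replicates 1 and 2, untreated against SX-682, was -0.011, 0.046 and -0.011 for Melan-A, B16F0 and B16F10. The replicate block left 8 members lowered in all lines.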

Other observations

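Srsf12, a relative of Srsf10 outside the 10 members, was nearly silent, with 0 to 38 counts in a library and 0 in each Melan-A library, and its change passed the test in no line. Among 6 genes often used as references, 4 fell in all lines and 0 rose in all, where 11.7% and 11.3% of all genes tested did so. Their median log2 fold changes were -0.14, -0.12 and -0.18 in Melan-A, B16F0 and B16F10. Actb changed by -0.44, -0.15 and -0.14 and Tbp by -0.16, -0.26 and -0.27. Gapdh rose in Melan-A (0.28) and B16F10 (0.04) and fell in B16F0 (-0.15). B2m rose in Melan-A (0.09) and B16F10 (0.10) and was not called in B16F0 (0.03). The fall of Srsf1 and Srsf2 was larger than that of Actb or Tbp in every line. In Melan-A, Srsf3, Srsf6 and Srsf10 also fell more than Actb. Srsf5 (-0.36), Srsf7 (-0.37), Srsf9 (-0.33) and Srsf11 (-0.17) fell less than Actb there, and Srsf4 was not called. In each B16 line the 8 members lowered in all lines fell more than Actb or Tbp. These differences between genes were not tested.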
